A study of Mus musculus with 20 samples.

Results

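The comparison described here is the step from day 3 to day 6 in mouse embryonic stem cells differentiating towards heart muscle, measured in 6 of the 20 RNA sequencing libraries of the study. The libraries were chosen by day and culture: the day 3 and the day 6 library of each of 3 cultures, so that each culture gave its own change. All cultures were E14 embryonic stem cells of the strain 129/Ola that had been transduced with a pLKO.1 lentivirus and selected with puromycin. The first culture carried a scrambled short hairpin RNA, and the others carried hairpin A or hairpin B against the long noncoding RNA Braveheart. Of the growth protocols in the labels, 1 forms embryoid bodies and 1 directs cells to cardiomyocytes with VEGF, activin A, BMP4 and FGFs, and which of them a library came from is not said. There was 1 library per culture and day, so the 3 values of a day mix the control with both hairpins. The error of a mean change rests on the spread between these cultures, which limma draws towards a trend over all loci. The labels do not say whether the days were sampled from 1 dish, or whether a culture was a clone or a pool.

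In the embryo, cells leave the epiblast through the primitive streak and become mesoderm or definitive endoderm. Nodal, BMP and Wnt ligands pattern that exit, and their secreted antagonists mark the anterior endoderm and organiser. Cardiac progenitors, the first blood cells and endothelium arise from the mesoderm that leaves early. Naive pluripotency genes are switched off before the streak genes come on, with a formative epiblast stage between them.

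The table of FPKM (fragments per kilobase of transcript, scaled to the fragments mapped in a library) held 22102 entries, of which 21460 spanned 300 bp or more and 12978 also reached 1 FPKM in at least 2 of the 6 libraries and were tested. The deposited table gives no counts. The most common low value among olfactory, vomeronasal and taste receptor loci of about 1 kb implied that 1 fragment on 1 kb was worth between 0.0967 and 0.139 FPKM, so that 3 fragments lay between 0.290 and 0.417 FPKM. In bulk RNA, fewer cells of a type and less RNA per cell cannot be told apart. Changes are differences of log2(FPKM + 1) between day 6 and day 3 within a culture, which understates the change of loci under a few FPKM.

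The hairpin B culture stood apart. Across the 12978 loci the change in scrambled and that in hairpin A had a Pearson r of 0.89, against 0.42 for scrambled with hairpin B and 0.44 for hairpin A with hairpin B. These are descriptions across loci, which are not independent replicates. No library is shared between cultures. Of the 21460 loci, 1188 (5.54%) were at least 2-fold higher at day 6 in scrambled, 995 (4.64%) in hairpin A and 463 (2.16%) in hairpin B. At least 2-fold lower were 680 (3.17%), 696 (3.24%) and 261 (1.22%). Levels and list medians are therefore given for each culture.

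**Figure D1:**
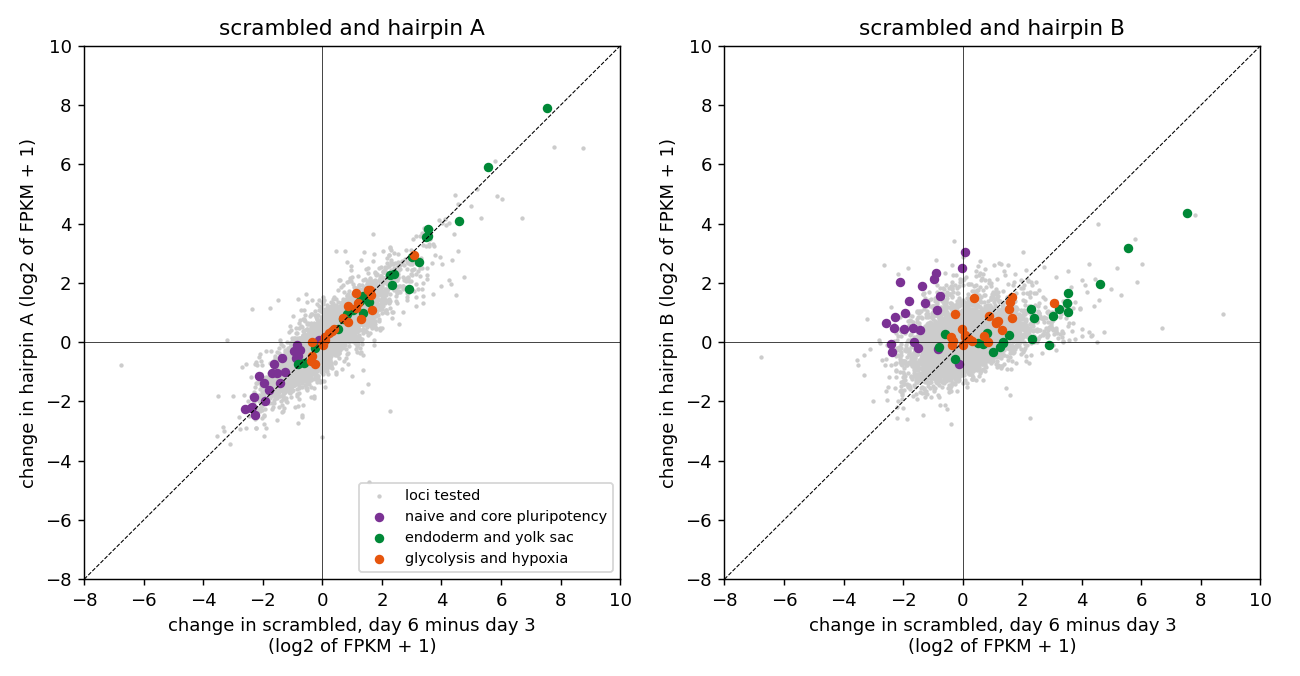
Each point is 1 locus; the horizontal axis is its day 6 minus day 3 change in scrambled and the vertical axis the change in hairpin A (left) or hairpin B (right), both in log2(FPKM + 1), with the dashed line marking equal change. The points lie along the line for hairpin A (r = 0.89) and spread away from it for hairpin B (r = 0.42), where most naive and core pluripotency genes lie left of zero and above the dashed line.

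Over the 3 cultures, limma (paired by culture, Benjamini-Hochberg adjustment over 12978 loci) called 215 loci higher (1.66%) and 226 lower (1.74%) at day 6. The adjusted p of these 441 calls lay between 0.0350 and 0.0500, and a further 607 loci had one between 0.05 and 0.06, so membership of the called set is a matter of a narrow margin. A size rule with no test, at least 2-fold the same way in every culture, was met by 140 loci higher (1.08%) and 84 lower (0.647%). Both rules were met by 97 loci higher and 78 lower. Of the 12978 tested loci, 4349 were higher and 3236 lower at day 6 in all 3 cultures. Counts of list members below are to be read beside these counts and shares. Where called loci are said not to overlap between the days, they had been picked on these same values. The share of all loci without overlap was not counted. Without hairpin B the calls were 4000 higher (31.2%) and 3258 lower (25.4%) of 12833 loci, on 1 residual degree of freedom from the remaining pair of cultures. Without scrambled or without hairpin A, limma called 0 loci in either direction, and 1779 of 12521 and 1906 of 12498 loci had an unadjusted p under 0.05. The number of calls thus depended on which cultures were compared, and the fit with no culture term called 1141 higher and 1024 lower.

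Among the 12 loci with the largest mean rise that passed both rules, 3 were of the endoderm and yolk sac list, 2 of the primitive streak list, and the others of 1 list each or of none, with Cer1 counted in more than 1. Of the endoderm and yolk sac list, 26 genes were in the table, 23 were tested, 4 were called higher and none lower by limma, beside 1.66% and 1.74% of all tested loci, and 8 met the size rule. Without hairpin B 20 were called higher and 2 lower, beside 31.2% and 25.4%. The list's median change over all 26 entries was 1.53 in scrambled, 1.49 in hairpin A and 0.25 in hairpin B, beside 0.00 in each culture over all loci of 300 bp or more. At least 2-fold higher were 19 of the 26 in scrambled, 16 in hairpin A and 8 in hairpin B, beside 5.54%, 4.64% and 2.16% of all loci.

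Spink3, a secreted serine protease inhibitor, went from 0.357 to 252 FPKM in scrambled, 0 to 239 in hairpin A and 0.356 to 26.7 in hairpin B. Its mean change of 6.60 ± 0.74 (n = 3 cultures) was the greatest of the loci that passed both rules. Here and below, ± gives limma's moderated SE. The variance of a locus is drawn towards a trend over all loci, so this is not the SE of the 3 changes alone. The day 6 libraries were far above the day 3 libraries in each culture, and the hairpin B library was the lowest of the 3. Cer1 (mm9 chromosome 4, 82527655 to 82531055), a secreted antagonist of Nodal, BMP and Wnt made by anterior endoderm, went from 0.152 to 53.6 FPKM in scrambled, 0.176 to 69.7 in hairpin A and 0.304 to 10.7 in hairpin B, a change of 4.88 ± 0.57. Sox17, an endoderm transcription factor that endothelium also uses, went from 0.134 to 12.3 FPKM in scrambled, 0.143 to 12.8 in hairpin A and 0.0799 to 2.42 in hairpin B, a change of 2.93 ± 0.44. Cxcr4, a chemokine receptor of definitive endoderm and migrating mesoderm, went from 0.728 to 40.9 FPKM in scrambled, 1.1 to 35.5 in hairpin A and 0.629 to 5.30 in hairpin B, a change of 3.55 ± 0.54. For each of these 4 genes the lowest day 6 value was above the highest day 3 value, and the rise in hairpin B was the smallest. All 4 had been called on these same values, so the separation of the days is a description.

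Other endoderm genes were higher at day 6 in every culture without passing the test. Foxa2, a forkhead factor of endoderm and node, read 1.91 to 32.8 FPKM in scrambled, 1.48 to 33.9 in hairpin A and 2.31 to 5.75 in hairpin B (adjusted p = 0.062, limma). Shh, a morphogen of axial mesendoderm and gut, read 0 to 10.3 FPKM in scrambled, 0.0339 to 11.2 in hairpin A and 0.0949 to 1.75 in hairpin B (adjusted p = 0.053). Hhex, a homeobox factor of anterior endoderm, read 4.59 to 28.3 FPKM in scrambled, 4.92 to 28.3 in hairpin A and 4.42 to 8.58 in hairpin B, where the hairpin B value at day 6 was less than a factor of 2 above its day 3 value. The secreted liver and yolk sac proteins Ttr, Afp and Apoa4 were listed at 0 at day 3 in all cultures and at most 4.01 FPKM at day 6. Apoe, an apolipoprotein that stem cells also express, stayed high at both days, with 458, 589 and 429 FPKM at day 3 and 302, 359 and 516 FPKM at day 6 in scrambled, hairpin A and hairpin B.

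Igf2, the imprinted fetal growth factor, went from 2.76 to 834 FPKM in scrambled, 3.47 to 426 in hairpin A and 3.52 to 87.0 in hairpin B, a change of 6.22 ± 0.67. Its locus in mm9 is chromosome 7, 149836673 to 149846940, and it overlaps the antisense entry Igf2as, from which it cannot be separated here because the sources used do not say whether counting used strand. Igfbp5, which binds insulin-like growth factors, went from 0.872 to 121 FPKM in scrambled, 0.827 to 51.5 in hairpin A and 0.648 to 9.38 in hairpin B, a change of 4.51 ± 0.65. Amot, a junctional scaffold protein of the Hippo pathway, went from 8.74 to 211 FPKM in scrambled, 6.34 to 230.0 in hairpin A and 8.79 to 41.7 in hairpin B, a change of 3.85 ± 0.57. In these 3 genes the hairpin B library was the lowest of day 6 and still above every day 3 library. Hesx1, a homeobox repressor of the anterior epiblast, head endoderm and forebrain, went from 0.336 to 24.2 FPKM in scrambled, 0.269 to 19.7 in hairpin A and 0.251 to 6.76 in hairpin B. Pga5, which encodes a pepsinogen, went from 0.258 to 28.6 FPKM in scrambled, 0.0688 to 25.8 in hairpin A and 0.0643 to 15.9 in hairpin B. The Pga5 change, 4.56, 4.65 and 3.99 in the 3 cultures, was the most even among the 12 loci of the rule that rose.

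**Figure D2:**
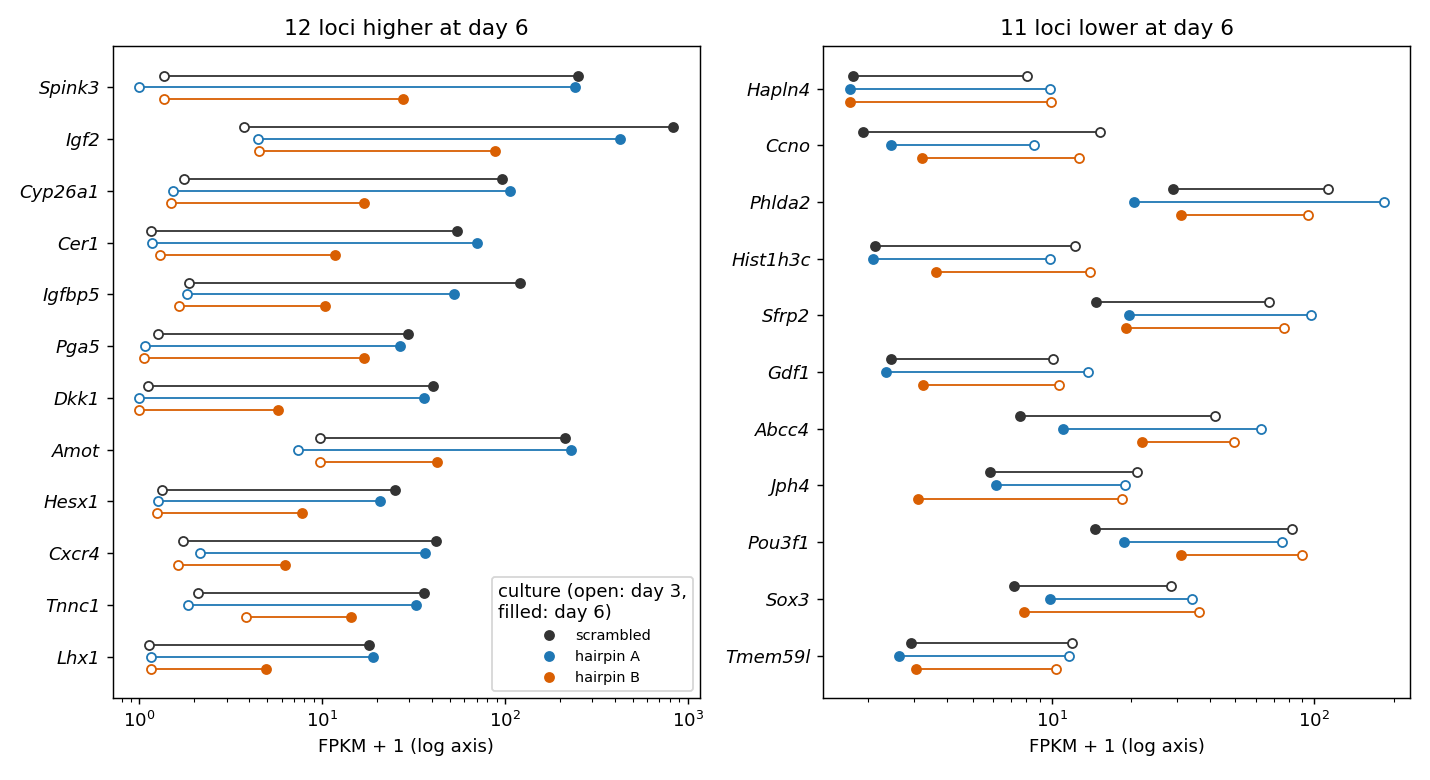
Levels of 12 loci that rose and 11 that fell, from those with the largest mean change that passed both rules, on a log axis of FPKM + 1; open circles are day 3, filled circles day 6, and each line joins the libraries of 1 culture. Among the loci that rose, hairpin B has the lowest day 6 value in every row, and among those that fell its day 6 value lies beside those of the other cultures for Hapln4, Sfrp2 and Tmem59l.

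Genes of the primitive streak and nascent mesoderm gave mixed results. Of 25 listed genes 18 were tested, and 2 (Cer1 and Lhx1) were called higher by limma and none lower, beside 1.66% and 1.74% of tested loci. The median change was 1.03 in scrambled, 0.75 in hairpin A and -0.04 in hairpin B. Lhx1, a LIM homeobox factor of the organiser and lateral mesoderm, went from 0.123 to 17.0 FPKM in scrambled, 0.164 to 18 in hairpin A and 0.153 to 3.92 in hairpin B, a change of 3.38 ± 0.44. T, the Brachyury factor of nascent mesoderm, read 7.09 to 25.4 FPKM in scrambled, 3.13 to 51.1 in hairpin A and 7.99 to 6.01 in hairpin B, so that it was higher at day 6 in scrambled and hairpin A and not in hairpin B (adjusted p = 0.178, limma), and the days overlapped. Eomes, a T-box factor of streak and definitive endoderm, showed the same arrangement, with 10.4 to 15.3 FPKM in scrambled, 5.74 to 21.8 in hairpin A and 9.96 to 8.52 in hairpin B. Gsc, the organiser homeobox gene, was at least 2-fold higher in every culture, from 1.45 to 10.5 FPKM in scrambled, 0.774 to 12.5 in hairpin A and 1.20 to 3.88 in hairpin B, and missed the threshold (adjusted p = 0.052). Mesp1, the earliest marker of cardiac mesoderm, was low in all libraries, reading 0.179 to 2.82 FPKM in scrambled, 0.382 to 1.13 in hairpin A and 0.179 to 0 in hairpin B. Of the ligands on this list, Nodal, Wnt8a and Fgf8 were lower at day 6 in every culture without passing, and Fgf8 is given below. Nodal read 69.5 to 12.4 FPKM in scrambled, 67.7 to 18.3 in hairpin A and 69.0 to 40.2 in hairpin B (adjusted p = 0.057). Wnt8a read 23.7 to 4.39 FPKM in scrambled, 18.4 to 10.3 in hairpin A and 23.6 to 4.44 in hairpin B (adjusted p = 0.056). Wnt3, another Wnt ligand of the streak, had changes of 0.22, 0.87 and -0.20 in scrambled, hairpin A and hairpin B (adjusted p = 0.448). Wnt3a was too low to be tested and had changes of 0.02, 0.33 and 0.45.

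Regulators of the cardiac progenitor were among the lists with the highest medians, 2.12 in scrambled, 0.80 in hairpin A and 0.33 in hairpin B. Of 21 such genes 16 were higher at day 6 in all 3 cultures, beside 5435 of all 21460 loci of 300 bp or more. Of the 16 that were tested, 12 had an unadjusted p under 0.05 in limma, beside 36.5% of all tested loci. None was called higher and 1, Srf, was called lower, beside 1.66% and 1.74% of tested loci. Srf switches on muscle and growth response genes. It read 39.5 to 23.9 FPKM in scrambled, 33.3 to 21.4 in hairpin A and 41.1 to 23.7 in hairpin B. Without hairpin B 14 genes of the list were called higher and 1 lower, beside 31.2% and 25.4% of the 12833 loci tested there. Gata4, a zinc finger factor of cardiac mesoderm and endoderm, read 0.429 to 12.9 FPKM in scrambled, 0.942 to 8.1 in hairpin A and 0.538 to 1.75 in hairpin B, and its relative Gata6 was at least 2-fold higher in every culture (changes of 3.24, 2.72 and 1.13, adjusted p = 0.055). Hand1, a factor of lateral plate, extraembryonic mesoderm and left ventricle, read 0.0923 to 24.9 FPKM in scrambled, 0 to 7.43 in hairpin A and 0.0460 to 1.81 in hairpin B. Like Gata6, it met the rule of at least 2-fold higher in every culture. Isl1, a factor of the second heart field, read 0.370 to 15.4 FPKM in scrambled, 0.395 to 12.4 in hairpin A and 1.04 to 1.16 in hairpin B. The Isl1 values of hairpin B at both days were close, while those of the other cultures at day 6 were more than 10 times their day 3 values. Nkx2-5, a defining cardiac factor, reached only 3.16 FPKM at day 6 in scrambled, and Tbx5 was at most 0.152 FPKM in any of the 6 libraries.

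Contractile genes of the cardiomyocyte were mostly still low. Of 28 in the table, 12 stayed under 1 FPKM in all 6 libraries and 13 were tested. Of these 13, 1 was called higher and none lower, beside 1.66% and 1.74% of tested loci. That gene, Tnnc1, the calcium-binding troponin of cardiac and slow muscle, went from 1.09 to 35.1 FPKM in scrambled, 0.835 to 31.7 in hairpin A and 2.81 to 13.4 in hairpin B, a change of 3.39 ± 0.49. Myl4, a light chain of embryonic heart, read 0.460 to 9.61 FPKM in scrambled, 0.491 to 3.70 in hairpin A and 0.458 to 2.03 in hairpin B, and it and Myl3, another light chain, were at least 2-fold higher in every culture without passing (adjusted p = 0.060 and 0.051). Tnnt2, the cardiac troponin that defines the lineage, read 0.0835 to 4.32 FPKM in scrambled, 0.0891 to 0.932 in hairpin A and 0 to 0.408 in hairpin B. Actc1, cardiac alpha actin, read 8.84 to 5.45 FPKM in scrambled, 3.22 to 7.86 in hairpin A and 7.88 to 4.95 in hairpin B, so that the days overlapped and 2 of 3 cultures had the lower value at day 6. Of 10 tested smooth muscle genes, 2 were called higher and none lower, beside 1.66% and 1.74% of tested loci. These were Acta2 (smooth muscle actin) and Cald1 (caldesmon). Acta2 went from 18.7 to 42.7 FPKM in scrambled, 17.5 to 46.7 in hairpin A and 20.9 to 65.7 in hairpin B. The changes of Cald1 were 1.77, 2.36 and 1.05 in scrambled, hairpin A and hairpin B. The calponin gene Cnn1 and the myosin light chain gene Myl9 were lower at day 6 in all 3 cultures without passing (adjusted p = 0.059 and 0.053).

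Among all list members, the globin gene Hbb-bh1 had the widest spread of change between cultures. Embryonic globins were listed at 0 in all 3 day 3 libraries. Hbb-bh1, a beta-like globin of primitive red cells, stood at 426, 93.6 and 0.944 FPKM at day 6 in scrambled, hairpin A and hairpin B, and Hba-x, the embryonic alpha-like globin, at 103, 17.2 and 0.389 FPKM. Neither passed (adjusted p = 0.084 and 0.098, limma), and hairpin B stayed under 1 FPKM for both. The entries of Hba-a1 and Hba-a2 are near-identical copies, so their values are uncertain. The blood list summed to 32.7, 28.5 and 25.9 FPKM at day 3 and to 724, 168 and 18.4 FPKM at day 6. Of its 25 entries, 18 were at least 2-fold higher in scrambled, 12 in hairpin A and 0 in hairpin B, beside 5.54%, 4.64% and 2.16% of all loci. By limma 0 of the 16 tested entries were called higher and 1, Myb, lower, beside 1.66% and 1.74% of tested loci. An unadjusted p under 0.05 was found by limma for 10 of the 16, beside 36.5% of all tested loci. Myb regulates progenitor growth and read 21.7 to 10.1 FPKM in scrambled, 18.4 to 9.36 in hairpin A and 16.9 to 8.39 in hairpin B. Ptprc, the pan-leukocyte marker CD45, was listed at 0 in all 6 libraries.

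Endothelial genes followed in part. Kdr, the VEGF receptor of mesoderm and endothelium, read 0.149 to 14.1 FPKM in scrambled, 0.302 to 3.03 in hairpin A and 0.297 to 1.03 in hairpin B and did not pass (adjusted p = 0.096). Etv2, the factor that starts the blood and endothelial programme, was on the opposite side, with 7.50 to 5.49 FPKM in scrambled, 7.80 to 2.07 in hairpin A and 10.7 to 0.728 in hairpin B. Of 17 tested endothelial genes, 1, Sox17, was called higher and none lower, beside 1.66% and 1.74% of tested loci. The list's median was 0.73 in scrambled, 0.23 in hairpin A and 0.12 in hairpin B. Cdh5, the endothelial cadherin, reached 3.48, 1.04 and 0.203 FPKM at day 6 in scrambled, hairpin A and hairpin B.

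Of the 28 lists, mesenchymal transition had the highest share of members that were higher in every culture. All 16 genes were tested, and 14 were higher at day 6 in every culture, beside 4349 of all 12978 tested loci. By limma 4 were called higher and none lower, beside 1.66% and 1.74% of tested loci. The median was 1.58 in scrambled, 1.3 in hairpin A and 0.42 in hairpin B. Vim, the mesenchymal intermediate filament protein, went from 63.7 to 142 FPKM in scrambled, 46.5 to 135 in hairpin A and 56.6 to 160.4 in hairpin B, a change of 1.38 ± 0.11, with the hairpin B value at day 6 the highest of the 3. Zeb1, a repressor of epithelial genes, went from 0.561 to 8.24 FPKM in scrambled, 1.45 to 7.18 in hairpin A and 0.668 to 4.63 in hairpin B. Sparc, a collagen-binding matrix protein, went from 62.1 to 177 FPKM in scrambled, 44.4 to 177 in hairpin A and 70.3 to 152 in hairpin B. In both of these the days did not overlap. Fn1, fibronectin, went from 86.9 to 186 FPKM in scrambled, 80.9 to 156 in hairpin A and 99.6 to 175 in hairpin B. At day 0 Zeb1 had stood at 7.92, 10.7 and 7.64 FPKM and Fn1 at 191, 204 and 192 FPKM, so that their day 6 levels were near or below those of the undifferentiated cultures. Cdh2 and Cdh11, cadherins of mesenchyme, had changes of 1.92, 2.16 and 0.46 and of 2.71, 1.91 and 0.27 in scrambled, hairpin A and hairpin B, and neither passed (adjusted p = 0.071 and 0.092).

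Epithelial genes were split, and those that passed were 3 keratins that rose and 2 other genes that fell. Of 21, all tested, 3 keratins were called higher and 2 genes lower, beside 1.66% and 1.74% of tested loci. In every culture 10 were lower, beside 3236 of all 12978 tested loci. The median was -0.47 in scrambled, -0.22 in hairpin A and -0.30 in hairpin B. Krt8 and Krt18, the paired keratins of simple epithelia, had changes of 2.32 ± 0.32 and 2.36 ± 0.26, and by culture Krt18 changed by 2.40, 3.01 and 1.67 in scrambled, hairpin A and hairpin B. For Krt8 the levels went from 54.1 to 263 FPKM in scrambled, 29.2 to 274 in hairpin A and 72.3 to 210.0 in hairpin B. Krt7, another keratin of simple epithelia, went from 2.38 to 10.2 FPKM in scrambled, 1.03 to 15.0 in hairpin A and 2.51 to 13.4 in hairpin B. Cdh1, the epithelial cadherin, read 198 to 133 FPKM in scrambled, 161 to 143 in hairpin A and 227 to 143 in hairpin B (adjusted p = 0.077). Epcam, another epithelial adhesion protein, read 165 to 116 FPKM in scrambled, 160.0 to 118 in hairpin A and 150.3 to 116 in hairpin B (adjusted p = 0.054). Both were lower at day 6 in every culture and neither passed. Grhl2, a transcription factor that maintains epithelium, fell from 19.5 to 9.85 FPKM in scrambled, 14.4 to 7.73 in hairpin A and 19.3 to 12.2 in hairpin B. Rab25, an epithelial trafficking GTPase, fell from 25.9 to 16.1 FPKM in scrambled, 18.1 to 11.2 in hairpin A and 24.2 to 13.3 in hairpin B.

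Basement membrane and fibrillar collagens were among the called matrix genes. Of 21 listed genes 15 were tested, 5 were called higher (Col1a2, Loxl2, Col4a2, Col4a1 and Col5a1) and 1, the surface protein gene Thy1, lower. Of all tested loci, 1.66% were called higher and 1.74% lower. Col4a2 and Col4a1, the basement membrane collagens, had changes of 2.07 ± 0.18 and 1.74 ± 0.25. By culture Col4a1 changed by 2.03, 2.14 and 1.06 in scrambled, hairpin A and hairpin B. Loxl2, a collagen cross-linking enzyme, changed by 2.55, 2.59 and 1.23, and the fibrillar collagen gene Col5a1 by 1.26, 1.1 and 1.39. Thy1 changed by -1.54, -1.1 and -1.92. For Col4a2 the levels went from 2.24 to 14.4 FPKM in scrambled, 2.01 to 13.5 in hairpin A and 2.74 to 11.2 in hairpin B, and the days did not overlap. Col1a2, a fibrillar collagen of fibroblasts, went from 0.491 to 5.04 FPKM in scrambled, 0.507 to 11.6 in hairpin A and 0.568 to 12.0 in hairpin B, after 12.5, 15.4 and 15.6 FPKM at day 0. The list, which includes fibroblast markers, summed to 193, 220 and 214 FPKM at day 0, to 63.1, 62.7 and 56.2 at day 3 and to 147, 128 and 98.1 at day 6 in scrambled, hairpin A and hairpin B. The embryoid body protocol in the labels starts from cells on feeders that were removed by pre-plating, and a part of feeder cells in these values was not tested.

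**Figure D3:**
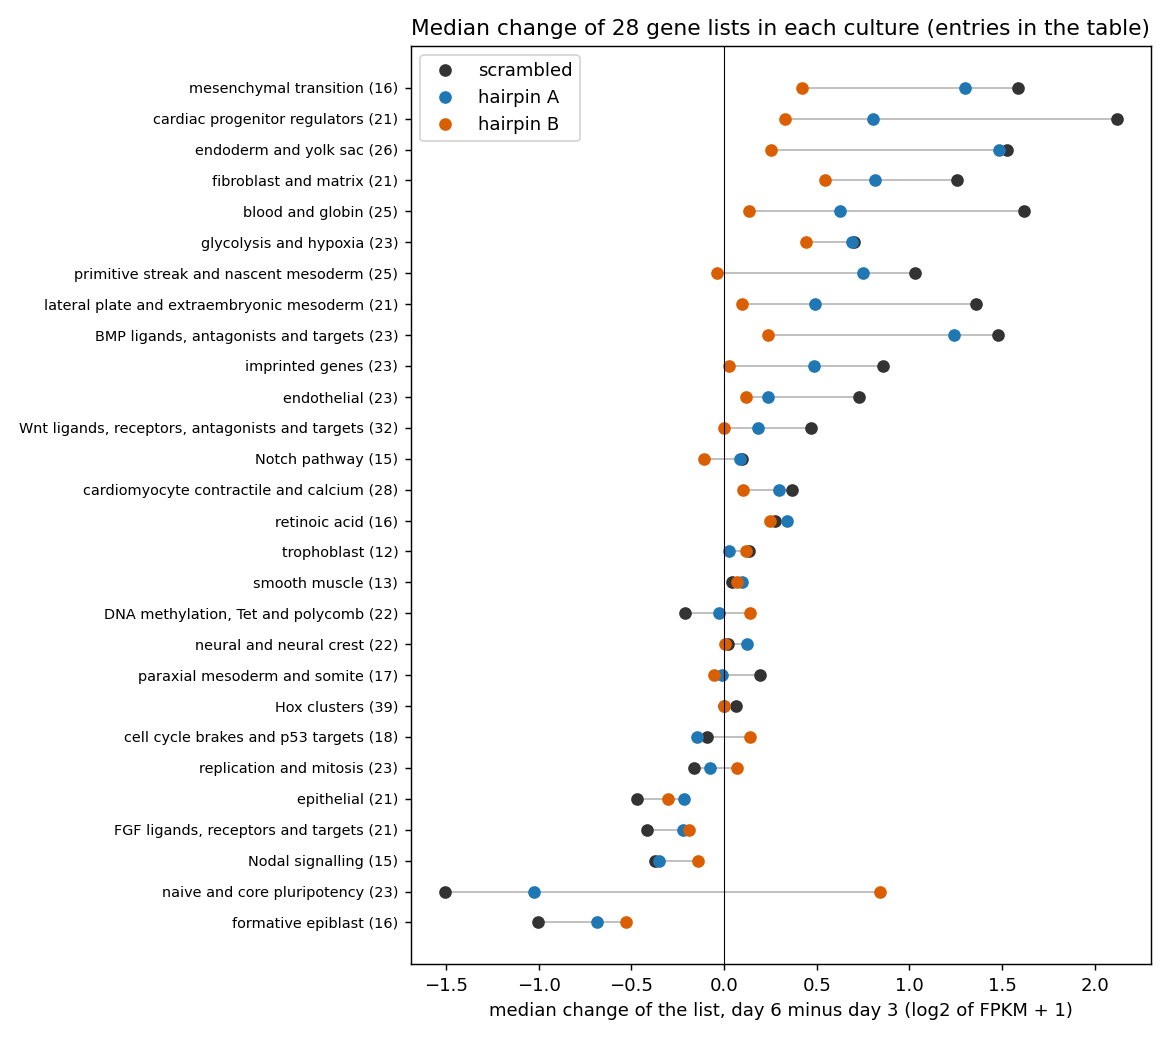
Median change over all entries of each of the 28 gene lists in each culture, in log2(FPKM + 1), with the number of entries in brackets and the grey line spanning the cultures. Naive and core pluripotency is the list whose medians spread most, from -1.51 in scrambled to 0.84 in hairpin B, while glycolysis and hypoxia lies between 0.44 and 0.70.

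Among secreted signals, the ligands Bmp2 and Bmp4 and the antagonist Nog rose. Of 20 tested BMP genes 3 were called higher and none lower, beside 1.66% and 1.74% of tested loci. The median over 23 was 1.48 in scrambled, 1.24 in hairpin A and 0.24 in hairpin B. Bmp2 and Bmp4, ligands that induce mesoderm and heart, had changes of 3.12 ± 0.43 and 1.85 ± 0.20. Bmp2 went from 0.406 to 16.6 FPKM in scrambled, 0.289 to 17.3 in hairpin A and 0.303 to 3.76 in hairpin B. Bmp4 went from 4.06 to 16.1 FPKM in scrambled, 2.66 to 9.26 in hairpin A and 2.28 to 15.1 in hairpin B, and of these 2 ligands it was the one whose change was largest in hairpin B (1.76, 1.49 and 2.30 in scrambled, hairpin A and hairpin B). Nog, a BMP antagonist, went from 0.546 to 3.31 FPKM in scrambled, 0.146 to 5.41 in hairpin A and 0.544 to 3.40 in hairpin B. Id1, a direct BMP target, read 35.6 to 152 FPKM in scrambled, 25.0 to 108 in hairpin A and 29.4 to 35.7 in hairpin B (adjusted p = 0.081). At day 6 hairpin B was within the range of the other cultures for Bmp4 and below both for Id1.

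Wnt antagonists split. Dkk1, which blocks Wnt co-receptors, went from 0.115 to 39.6 FPKM in scrambled, 0 to 34.9 in hairpin A and 0 to 4.72 in hairpin B, a change of 4.29 ± 0.59. Sfrp5, a secreted frizzled-related antagonist, went from 0.6 to 9.33 FPKM in scrambled, 0.886 to 6.01 in hairpin A and 0.322 to 2.81 in hairpin B. In the other direction Sfrp2, of the same family, fell from 65.9 to 13.7 FPKM in scrambled, 95.9 to 18.6 in hairpin A and 75.5 to 18.2 in hairpin B, a change of -2.16 ± 0.11. The agonist Rspo1 fell from 8.15 to 2.90 FPKM in scrambled, 6.65 to 2.35 in hairpin A and 6.69 to 1.46 in hairpin B. Nkd2, an intracellular inhibitor, fell from 4.56 to 1.07 FPKM in scrambled, 5.36 to 2.03 in hairpin A and 4.13 to 1.20 in hairpin B. Of 26 tested Wnt genes these were the 2 called higher and the 3 called lower, beside 1.66% and 1.74% of tested loci. Axin2, a widely used Wnt target, read 11 to 6.85 FPKM in scrambled, 7.82 to 7.15 in hairpin A and 11.4 to 7.09 in hairpin B (adjusted p = 0.121).

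Of the 14 tested Nodal signalling genes Cer1 was called higher and Gdf1 lower, beside 1.66% and 1.74% of tested loci. Lefty1, a Nodal antagonist and target, was at least 2-fold lower in every culture, from 217 to 21.2 FPKM in scrambled, 252 to 31.0 in hairpin A and 248 to 115 in hairpin B, and missed the threshold (adjusted p = 0.054). Gdf1, a partner ligand of Nodal, was called lower, from 9.08 to 1.46 FPKM in scrambled, 12.7 to 1.35 in hairpin A and 9.70 to 2.22 in hairpin B, but its locus overlaps Lass1 and Upf1 and its value is uncertain. Cfc1, a Nodal co-receptor, read 1.03 to 25.8 FPKM in scrambled, 0.800 to 17.0 in hairpin A and 1.12 to 3.68 in hairpin B (adjusted p = 0.057). No FGF gene passed in either direction among 19 tested by limma, and 9 had an unadjusted p under 0.05, beside 36.5% of all tested loci. Fgf8, a ligand needed for cells to leave the streak, read 33.5 to 24.3 FPKM in scrambled, 26.3 to 25.6 in hairpin A and 37.6 to 12.4 in hairpin B. Fgf10, made by the second heart field, read 0.161 to 6.70 FPKM in scrambled, 0.137 to 5.86 in hairpin A and 0.250 to 1.02 in hairpin B. In the Notch list 1 of 13 tested genes, Jag2, was called lower and none higher, beside 1.74% and 1.66% of tested loci. This ligand gene fell from 17.0 to 5.02 FPKM in scrambled, 19 to 4.38 in hairpin A and 17.2 to 8.48 in hairpin B.

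Of the retinoic acid genes, 12 of 16 were tested. Of these, 1 was called higher and none lower, beside 1.66% and 1.74% of tested loci. Cyp26a1, the enzyme that degrades retinoic acid and a direct target of its receptors, went from 0.743 to 94.9 FPKM in scrambled, 0.529 to 105 in hairpin A and 0.494 to 15.9 in hairpin B, a change of 5.13 ± 0.54. Cyp26c1, a related enzyme, read 0 to 5.88 FPKM in scrambled, 0.123 to 3.88 in hairpin A and 0.0576 to 1.42 in hairpin B (adjusted p = 0.052), and Rarb, a receptor and target gene, read 0.243 to 9.10 FPKM in scrambled, 0.195 to 6.43 in hairpin A and 0.364 to 0.807 in hairpin B. The synthetic enzyme gene Aldh1a2 stayed at or under 1.01 FPKM in all 6 libraries. The Cyp26a1 promoter is printed because it holds, in capitals, a direct repeat of the receptor half-site with 5 bases between (searched as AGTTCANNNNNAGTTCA on both strands). The sequence is from RefSeq in GRCm38.p6, chr19:37697558-37697857, plus strand, from 250 bases before the transcript start to 50 after it.
Cyp26a1: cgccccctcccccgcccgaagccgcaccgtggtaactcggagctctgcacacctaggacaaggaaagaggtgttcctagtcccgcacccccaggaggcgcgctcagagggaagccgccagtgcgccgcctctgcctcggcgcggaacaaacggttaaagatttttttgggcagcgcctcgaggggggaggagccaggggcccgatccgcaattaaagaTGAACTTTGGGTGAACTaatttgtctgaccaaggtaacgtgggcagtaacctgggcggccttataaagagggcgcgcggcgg
The capitals read the repeat on the opposite strand. The same 17-letter pattern occurred in 8 of 27025 RefSeq genes with such a window (0.0296%). Among 12 retinoic acid genes with a window it occurred in 1, Cyp26a1 itself. The pattern has the exact half-site letters of this repeat and allows no variation in them, so its rarity lends the match no weight. A match is a description of letters and not of binding, and the GRCm38.p6 coordinates are not those of the mm9 table.

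Naive and core pluripotency genes were the group on which the cultures parted. Of 23 genes, all tested, none passed in either direction by limma over the 3 cultures, and 4 had an unadjusted p under 0.05, beside 4731 (36.5%) of all tested loci. The median change was -1.51 in scrambled, -1.03 in hairpin A and 0.84 in hairpin B. At least 2-fold lower were 15 of 23 in scrambled and 13 in hairpin A, and none in hairpin B. In hairpin B 10 were at least 2-fold higher. Of all 12978 tested loci, 676, 678 and 256 were at least 2-fold lower in scrambled, hairpin A and hairpin B. At least 2-fold higher in hairpin B were 431 of them. Without hairpin B 19 naive and core genes were called lower and none higher, beside 25.4% and 31.2% of the 12833 loci tested there.

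Esrrb (mm9 chromosome 12, 87702067 to 87862577), an orphan nuclear receptor of the naive state, read 52.2 to 14.2 FPKM in scrambled, 49.8 to 15.7 in hairpin A and 42.2 to 112 in hairpin B. Zfp42 (Rex1), a marker lost on leaving that state, read 119 to 45.8 FPKM in scrambled, 94.6 to 64.4 in hairpin A and 92.4 to 349 in hairpin B. Klf4, another factor of that state, read 5.93 to 2.75 FPKM in scrambled, 6.36 to 4.08 in hairpin A and 4.28 to 25.4 in hairpin B. At day 3 the 3 cultures were close for each of these genes, and at day 6 the hairpin B library alone was above its own day 3 value. At day 0 the 3 cultures had stood at 167, 207 and 216 FPKM for Esrrb, and hairpin B at day 6 lay between its day 3 and its day 0 level. Pou5f1 (Oct4), which naive and primed cells both need, read 788 to 276 FPKM in scrambled, 689 to 337 in hairpin A and 705 to 621 in hairpin B. Sox2, its partner, read 279 to 104 FPKM in scrambled, 329.8 to 127 in hairpin A and 249.8 to 329 in hairpin B. The Sox2 entry overlaps Sox2ot, so its value is uncertain. Lin28a, an RNA-binding protein of primed and early differentiating cells, read 308 to 283 FPKM in scrambled, 259 to 276 in hairpin A and 310.5 to 186 in hairpin B, where hairpin B had the lowest value at day 6.

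**Figure D4:**
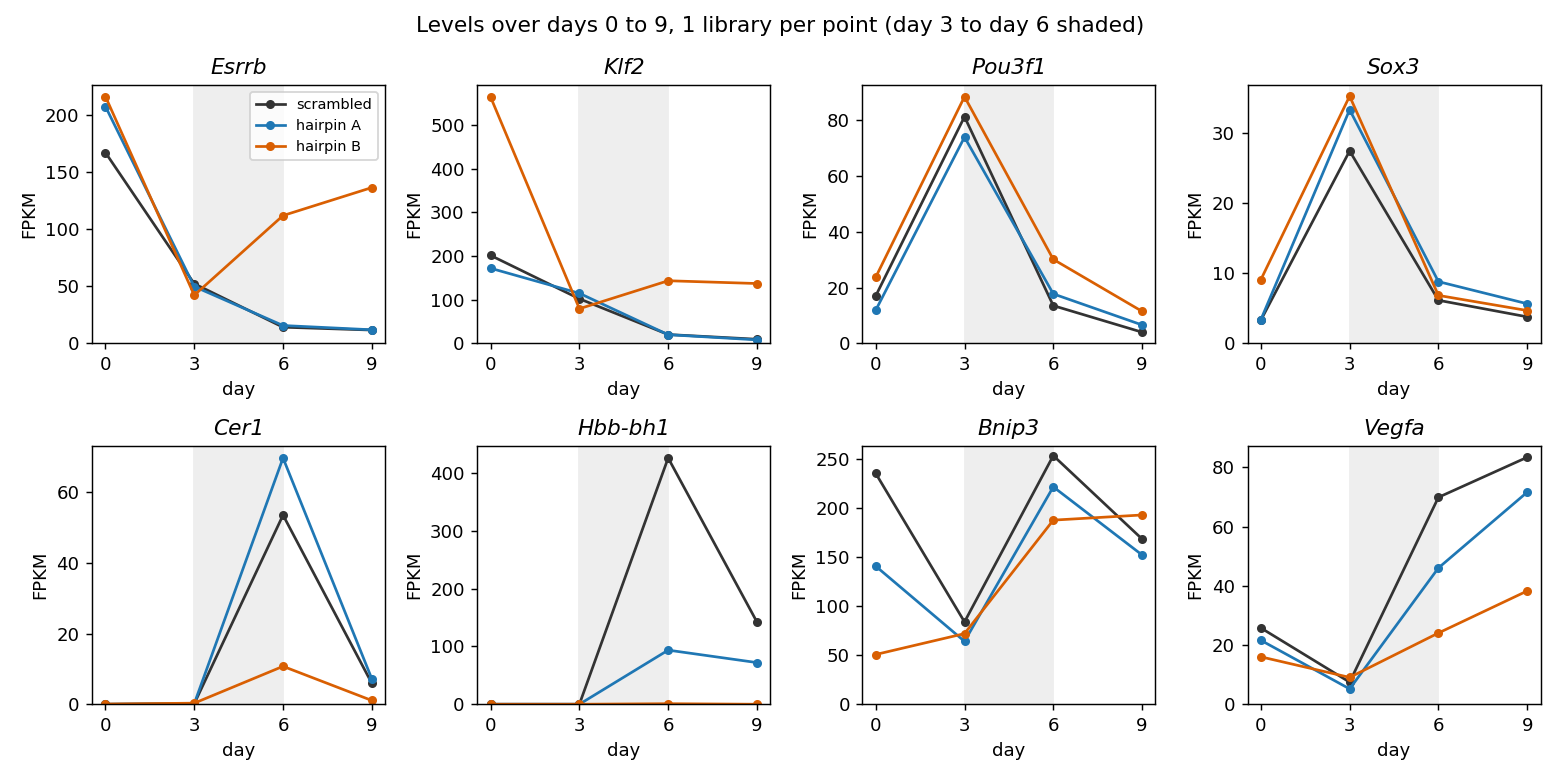
FPKM of 8 genes at days 0, 3, 6 and 9 in each culture, 1 library per point, with the step from day 3 to day 6 shaded. Esrrb and Klf2 are higher at day 6 than at day 3 in hairpin B and lower in the other cultures, Pou3f1 and Sox3 peak at day 3 in every culture, Hbb-bh1 is near 0 in hairpin B, and Bnip3 rises in all 3.

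In each culture most genes of the formative epiblast were lower at day 6, and 3 passed the test. Of 16, all tested, 3 were called lower and none higher, beside 1.74% and 1.66% of tested loci. In every culture 9 were lower, beside 3236 of all 12978 tested loci. The median was -1.0 in scrambled, -0.68 in hairpin A and -0.53 in hairpin B. Without hairpin B 11 were called lower and 3 higher, beside 25.4% and 31.2% of the 12833 loci tested there. Pou3f1 (Oct6, mm9 chromosome 4, 124334889 to 124337899), a POU factor of the formative epiblast, fell from 81.2 to 13.6 FPKM in scrambled, 73.9 to 17.8 in hairpin A and 88.4 to 30.1 in hairpin B, a change of -2.01 ± 0.20. Sox3, a SoxB1 factor of epiblast and neural plate, fell from 27.4 to 6.16 FPKM in scrambled, 33.3 to 8.82 in hairpin A and 35.2 to 6.85 in hairpin B, a change of -2.0 ± 0.13. Dnmt3a, a de novo DNA methyltransferase, fell from 38.6 to 20.3 FPKM in scrambled, 38.1 to 21.5 in hairpin A and 31.7 to 19.3 in hairpin B. Its relative Dnmt3b read 448 to 182 FPKM in scrambled, 297 to 193 in hairpin A and 358 to 121 in hairpin B, on the far side of the threshold (adjusted p = 0.052). Fgf5 read 51.5 to 38.4 FPKM in scrambled, 32.7 to 61.2 in hairpin A and 46.4 to 24.4 in hairpin B, so that the late epiblast marker was not lower in hairpin A. Against its own day 3, hairpin B at day 6 thus had lower Pou3f1 and Sox3 together with higher values of most naive genes. Against the other cultures at day 6, its Pou3f1 was the highest and its Sox3 lay between theirs.

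Other loci that fell most in every culture had varied roles. Hapln4, a link protein of hyaluronan matrix, had the largest mean fall of the loci that passed both rules, from 7.03 to 0.758 FPKM in scrambled, 8.86 to 0.714 in hairpin A and 8.94 to 0.706 in hairpin B, a change of -2.42 ± 0.17. Abcc4, an exporter of organic anions, fell from 40.8 to 6.56 FPKM in scrambled, 61.8 to 10.1 in hairpin A and 48.6 to 21.1 in hairpin B. Ccno, an atypical cyclin, fell from 14.3 to 0.906 FPKM in scrambled, 7.53 to 1.44 in hairpin A and 11.7 to 2.21 in hairpin B. In both of these hairpin B had the highest day 6 value. Jph4, a junctophilin that links membranes, fell from 20.2 to 4.84 FPKM in scrambled, 18 to 5.12 in hairpin A and 17.5 to 2.10 in hairpin B. Tmem59l fell from 11 to 1.92 FPKM in scrambled, 10.6 to 1.62 in hairpin A and 9.35 to 2.04 in hairpin B. Hist1h3c, a histone H3 gene, fell from 11.3 to 1.12 FPKM in scrambled, 8.83 to 1.08 in hairpin A and 12.9 to 2.64 in hairpin B, but it is short and has near-identical copies, so its value is uncertain. For each of these the highest day 6 value was below the lowest day 3 value, which the rules that picked them made likely.

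Among genes of glycolysis and of the response to low oxygen, 7 passed as higher, with higher values at day 6 in hairpin B too. Of the 23 glycolysis and hypoxia genes, all tested, 7 were called higher and none lower, beside 1.66% and 1.74% of tested loci. In every culture 16 were higher, beside 4349 of all 12978 tested loci. The median was 0.70 in scrambled, 0.69 in hairpin A and 0.44 in hairpin B. Without hairpin B 15 were called higher and 3 lower, beside 31.2% and 25.4% of the 12833 loci tested there. Bnip3, a mitophagy receptor, went from 84.0 to 254 FPKM in scrambled, 64.2 to 222 in hairpin A and 72.1 to 188 in hairpin B, a change of 1.58 ± 0.11. Vegfa, the endothelial growth factor, went from 7.46 to 69.9 FPKM in scrambled, 5.18 to 46.0 in hairpin A and 9.07 to 24.1 in hairpin B, a change of 2.44 ± 0.38. Slc2a3, a glucose transporter, went from 302 to 884 FPKM in scrambled, 259 to 882 in hairpin A and 321 to 706 in hairpin B. Of these 3 genes Vegfa had the widest spread between cultures. Ndrg1, a stress response gene, went from 4.92 to 17.5 FPKM in scrambled, 4.1 to 14.5 in hairpin A and 4.53 to 14.7 in hairpin B. Pgk1, a glycolytic kinase, went from 707 to 1602 FPKM in scrambled, 573 to 1420.5 in hairpin A and 636 to 1051 in hairpin B. Egln3, an oxygen-sensing prolyl hydroxylase, went from 13.6 to 30.8 FPKM in scrambled, 10.6 to 24.7 in hairpin A and 13.3 to 21.5 in hairpin B. None of the 7 called genes overlapped between the days, but they were called on these same values, so this is a description. Higd1a, a mitochondrial protein, went from 6.84 to 13.4 FPKM in scrambled, 7.07 to 12.0 in hairpin A and 6.04 to 11.9 in hairpin B. Glycolytic genes such as Gapdh (177 to 178 FPKM in scrambled, 197 to 183 in hairpin A and 184 to 173 in hairpin B), Eno1 and Pfkm did not pass, and Ldha read 863 to 1568 FPKM in scrambled, 577 to 1361 in hairpin A and 755 to 754 in hairpin B. Bnip3 had stood at 236, 141 and 50.8 FPKM at day 0 in scrambled, hairpin A and hairpin B, and each day 6 value was above the day 0 value of its own culture.

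**Figure D5:**
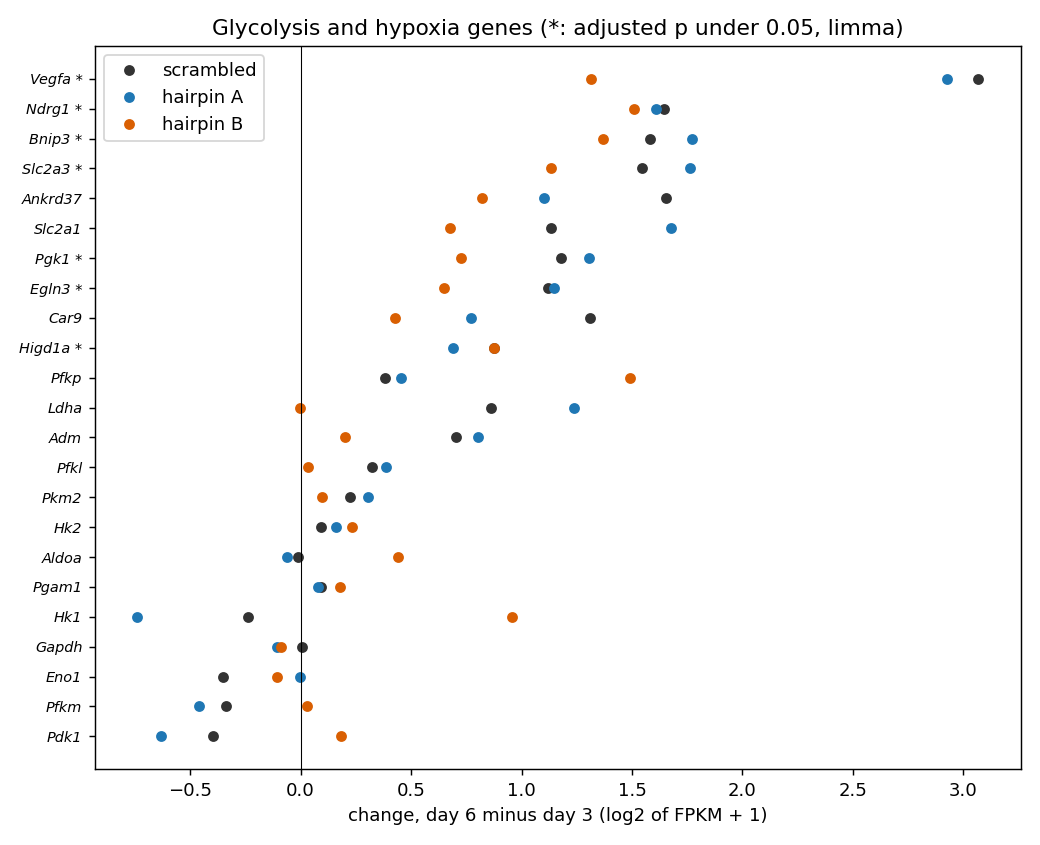
Change from day 3 to day 6 of the 23 glycolysis and hypoxia genes in each culture, in log2(FPKM + 1), ordered by mean change, with an asterisk for the 7 called by limma. Vegfa has the largest mean change, 2.44, and the widest spread between cultures among the called genes, and the lower rows lie around 0.

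The promoters of 4 of the called genes are printed to show where the searched letters lie. Capitals mark ACGTG, the core of the hypoxia response element, or its reverse complement, in windows from 250 bases before to 50 after the transcript start (RefSeq, GRCm38.p6). They are chrX:106186850-106187149 (plus strand) for Pgk1, chr7:138909457-138909756 (minus) for Bnip3, chr9:121857747-121858046 (minus) for Higd1a and chr12:54203825-54204124 (minus) for Egln3.
Pgk1: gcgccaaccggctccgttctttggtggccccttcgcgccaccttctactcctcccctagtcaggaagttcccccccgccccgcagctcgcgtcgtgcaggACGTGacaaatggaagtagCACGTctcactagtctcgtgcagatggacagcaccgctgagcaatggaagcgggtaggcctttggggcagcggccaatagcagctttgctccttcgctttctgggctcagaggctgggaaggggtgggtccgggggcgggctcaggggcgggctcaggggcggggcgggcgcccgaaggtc
Bnip3: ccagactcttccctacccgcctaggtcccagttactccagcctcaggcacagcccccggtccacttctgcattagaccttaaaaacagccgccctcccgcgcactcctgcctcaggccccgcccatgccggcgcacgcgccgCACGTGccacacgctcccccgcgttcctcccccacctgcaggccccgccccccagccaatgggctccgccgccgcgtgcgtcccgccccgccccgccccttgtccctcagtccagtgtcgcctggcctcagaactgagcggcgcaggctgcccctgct
Higd1a: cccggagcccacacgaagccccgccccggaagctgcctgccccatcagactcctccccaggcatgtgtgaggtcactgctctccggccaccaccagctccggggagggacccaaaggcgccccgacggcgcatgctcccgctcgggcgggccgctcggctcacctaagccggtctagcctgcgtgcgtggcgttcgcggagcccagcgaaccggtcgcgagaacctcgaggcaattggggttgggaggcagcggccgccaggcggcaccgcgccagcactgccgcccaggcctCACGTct
Egln3: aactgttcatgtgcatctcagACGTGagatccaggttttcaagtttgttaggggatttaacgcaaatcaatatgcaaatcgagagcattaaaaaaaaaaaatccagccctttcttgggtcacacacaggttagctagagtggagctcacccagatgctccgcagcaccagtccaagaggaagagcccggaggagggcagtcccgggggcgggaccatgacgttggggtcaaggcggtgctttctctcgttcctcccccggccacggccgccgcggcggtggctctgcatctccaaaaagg
Pgk1 holds 2 separate matches, Bnip3 holds 2 that overlap in a palindrome which is also the E-box CACGTG, and Higd1a and Egln3 hold 1 each. At least 1 match was found in 15 of 20 listed genes that had a window (75.0%), in 5 of 5 called genes that had one (100%), and in 5886 of 27025 RefSeq genes (21.8%). The list was drawn up from genes of glycolysis and the response to low oxygen, so its excess over all genes is no independent support. The called genes were too few to be set apart from the list. The called genes Ndrg1 and Slc2a3 are named only. The search is a description of letters, and whether any factor binds there was not measured.

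The 23 imprinted genes had a median change of 0.86 in scrambled, 0.49 in hairpin A and 0.03 in hairpin B. Of the 21 that were tested, 3 were called higher and 1 lower, beside 1.66% and 1.74% of tested loci. Besides Igf2, Peg10 and Peg12 (changes of 1.59, 2.07 and 1.36 in scrambled, hairpin A and hairpin B) were called higher, Peg10, a retrotransposon-derived gene of placenta, going from 100.5 to 175 FPKM in scrambled, 119 to 222 in hairpin A and 127 to 245 in hairpin B. Phlda2, a brake on placental growth, was the 1 called lower, from 111 to 27.9 FPKM in scrambled, 183 to 19.6 in hairpin A and 93.3 to 30.1 in hairpin B. H19, the noncoding neighbour of Igf2, read 0.259 to 8.49 FPKM in scrambled, 0.450 to 9.29 in hairpin A and 0.291 to 1.53 in hairpin B (adjusted p = 0.058).

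Of 23 replication genes, all tested, 1 (Plk1) was called lower and none higher, beside 1.74% and 1.66% of tested loci. Plk1, a mitotic kinase, fell from 136 to 74.9 FPKM in scrambled, 128 to 77.3 in hairpin A and 129 to 89.3 in hairpin B. The list's median was -0.16 in scrambled, -0.08 in hairpin A and 0.07 in hairpin B. Pcna, the polymerase clamp, read 535 to 517 FPKM in scrambled, 594 to 583 in hairpin A and 519.5 to 532 in hairpin B. In the list of cell cycle and p53 target genes Ccnd1 (cyclin D1) fell from 78.3 to 31.6 FPKM in scrambled, 64.6 to 30.7 in hairpin A and 52.1 to 29.1 in hairpin B. Sesn2, a stress-induced p53 target, fell from 58.3 to 24.5 FPKM in scrambled, 57.6 to 21.4 in hairpin A and 59.2 to 36.2 in hairpin B. Among 21 tested DNA methylation and polycomb genes Dnmt3a alone passed, as lower, beside 1.66% of tested loci called higher and 1.74% lower. Tet1, a methylcytosine oxidase, read 34.5 to 16.8 FPKM in scrambled, 35.8 to 21.2 in hairpin A and 30.8 to 57.5 in hairpin B, which was another gene with opposite directions in hairpin B and the other cultures.

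Defining genes of some other lineages were low at day 6. Of 39 Hox genes, 35 stayed under 1 FPKM in all 6 libraries and 1 was tested. The paraxial mesoderm list was mixed. Of its 17 entries 9 were tested and 0 passed by limma, beside 1.66% of tested loci called higher and 1.74% lower. An unadjusted p under 0.05 was found by limma for 4 of the 9, beside 36.5% of all tested loci. At least 2-fold higher were 5 of the 17 in scrambled, 4 in hairpin A and 0 in hairpin B. Over all loci these shares were 5.54%, 4.64% and 2.16%. Pax1, a sclerotome factor, read 0.0643 to 8.37 FPKM in scrambled, 0.0343 to 1.44 in hairpin A and 0.288 to 0.0632 in hairpin B (adjusted p = 0.199). Foxc1, a forkhead factor of paraxial and cardiac mesoderm, read 0.186 to 7.83 FPKM in scrambled, 0.353 to 4.60 in hairpin A and 0.206 to 0.731 in hairpin B (adjusted p = 0.079). Its relative Foxc2 read 0.0310 to 4.40 FPKM in scrambled, 0.0331 to 1.09 in hairpin A and 0 to 0.0610 in hairpin B (adjusted p = 0.152). These 3 were higher at day 6 in scrambled and hairpin A, and of them Pax1 was lower in hairpin B. Meox1 and Uncx stayed at or under 0.301 FPKM, and Tbx6, a defining factor of presomitic mesoderm, at or under 1.25 FPKM. Of 11 tested neural genes 2 were called higher and none lower, beside 1.66% and 1.74% of tested loci. The median of their mean changes was -0.53. At least 2-fold higher were 5 of the 22 neural entries in scrambled, 4 in hairpin A and 2 in hairpin B. At least 2-fold lower were 5, 4 and 1. Over all loci, 5.54%, 4.64% and 2.16% were at least 2-fold higher and 3.17%, 3.24% and 1.22% lower. The called genes were Sox1, an early neural factor, and Ncam1, a cell adhesion gene that mesoderm also uses. Sox1 read 0.711 to 2.92 FPKM in scrambled, 1.92 to 7.19 in hairpin A and 1.13 to 5.30 in hairpin B. Ncam1 changed by 1.76, 1.15 and 1.1 in scrambled, hairpin A and hairpin B. Neurog1, Olig2 and Dcx stayed at or under 0.130 FPKM. Trophoblast markers Tpbpa and Prl3d1 were at or near 0, and 0 of 6 tested trophoblast genes passed by limma. Of these 6, 2 had an unadjusted p under 0.05 in limma, beside 36.5% of all tested loci. Set against the name mesoderm step, the mesoderm factors T, Hand1 and Gata4 were higher at day 6 in scrambled and hairpin A. In hairpin B Hand1 and Gata4 were also higher, by less, and T was lower. None of them passed the test over the 3 cultures.

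The loci that moved in scrambled and hairpin A were set beside their change in hairpin B. Of 733 tested loci at least 2-fold higher in both of those cultures, 140 were also at least 2-fold higher in hairpin B and 98 were lower there, with a median change of 0.45 in hairpin B and a median of 1.53 in the mean of the other cultures. Of 449 loci at least 2-fold lower in both, 84 were at least 2-fold lower in hairpin B and 108 were higher, with medians of -0.40 and -1.41. These loci were picked for their change in scrambled and hairpin A, so the smaller median of hairpin B is a description. The rule that named loci by the distance of hairpin B from the others gave, on the higher side, Hbb-bh1, Hba-x, Spink3, Capn6, Cd24a and Isl1. Cd24a, a surface glycoprotein, read 81.9 to 681 FPKM in scrambled, 46.2 to 529 in hairpin A and 92.0 to 86.7 in hairpin B. Capn6, a calpain family protein, read 0.210 to 68.8 FPKM in scrambled, 0.149 to 34.2 in hairpin A and 0.163 to 3.76 in hairpin B. On the lower side it gave Rpph1, Acsm3, Gm7325, Nr0b1, Klf2 and Esrrb. Nr0b1 (Dax1) and Klf2, both factors of the naive network, had changes of -2.11, -1.16 and 2.03 and of -2.27, -2.45 and 0.84 in scrambled, hairpin A and hairpin B, so that hairpin B was higher at day 6 and the other cultures lower. Rpph1, the RNA of RNase P, is a short noncoding locus and Acsm3 overlaps Eri2, so these values are uncertain.

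Whether the hairpins changed differently from scrambled was tested for all 12978 loci with an interaction term in limma, which had 1 residual degree of freedom, from the pair of hairpin cultures. It called 1 locus (0.00771%), and 130 had an unadjusted p under 0.05. For the loci named here, a difference between hairpins and scrambled in the step from day 3 to day 6 was not shown by this test.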

How the data were processed

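Per the submitters' processing notes, the authors mapped the reads with TopHat 1.14 and Bowtie 0.12.7 to mm9 and estimated FPKM per gene with Cufflinks 1.3.0. The 12 time course columns of that deposited FPKM table were matched to their libraries by name, and the 6 of days 3 and 6 were used. Library strand and annotation version are not given in the sources used here. Of the 132612 values at days 3 and 6, the authors' table marked 1957 as lowdata and 288 as fail, and all were kept.

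Loci under 300 bp (642) were left out, because FPKM of loci near the fragment length is unstable, and loci with at least 1 FPKM in at least 2 of the 6 libraries were tested (12978). limma 3.58.1 in R 4.3.3 was fitted to log2(FPKM + 1) with day and culture as terms, eBayes with a mean trend and Benjamini-Hochberg adjustment at a threshold of 0.05, two-sided, with 2 residual degrees of freedom per locus. Days were paired by the hairpin a culture carries, per the labels. Between the day 3 and day 6 libraries, deviations from each day's mean correlated across loci by 0.0509 in scrambled, 0.0766 in hairpin A and -0.0824 in hairpin B. Hairpins against scrambled was tested on the 3 changes per locus. The script was tested on simulated data.

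The comparison and the 28 gene lists were chosen with earlier results of these data known. The lists are described by counts and medians over all entries in the table, without a set test. Named loci were the 12 with the largest mean change each way among those that passed limma and changed at least 2-fold in every culture, list members by size of change and known role, the 6 each way where hairpin B lay farthest from the other cultures' mean, and defining list members near 0. The 25 entries whose names had become dates were not named. The targeted RNA and 2 further loci, 1 of them among the 12 that fell, are not reported here, and those 2 stayed in the fits and counts. Columns of bounds and the authors' ratios between libraries, and the survey of other cell lines, were not used. Promoter windows came from RefSeq (GRCm38.p6), and a start coordinate in mm9 is given 1-based. Alternatives tried were a fit with no culture term, all 12 libraries, no mean trend, a pseudocount of 0.1, no filter on low values, short loci kept, upper quartile scaling, only values with status ok, and each culture left out. With 1 library per culture and day, error is the spread between cultures, drawn by limma towards a trend over all loci. Limits of detection cover counting error only.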

Additional observations from a re-analysis of the deposited data

Results flagged for a closer look

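The median change of the paraxial mesoderm and somite list was 0.19 in scrambled and below 0 in both hairpins (-0.01 and -0.06), a difference that was not tested. Groups of 3 samples are too small for the check on single outlying samples, so that check was not made.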

How the results depend on the processing

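The paired limma calls of 215 higher and 226 lower became 1141 and 1024 with no replicate block, 1129 and 922 with all 12 libraries, 18 and 11 with no mean trend, and 16 and 13 with loci under 300 bp kept. A pseudocount of 0.1 gave 398 higher, with the lower count within 1.5 times. Without a filter on low values 0 and 0 of 18478 loci passed in limma, with 5378 at an unadjusted p under 0.05. Leaving out 1 culture in turn gave 0 to 4000 higher and 0 to 3258 lower. The size rule, 140 higher and 84 lower, gave 363 and 197 with a pseudocount of 0.1, and 164 to 733 and 106 to 449 over the cultures left out, with the highest counts without hairpin B in both rules. The hairpins against scrambled call of 1 locus became 0 with no mean trend, 0 with no filter and 0 with status ok only (172, 484 and 119 loci at an unadjusted p under 0.05), and 10 with loci under 300 bp kept. The cause of these shifts was not tested. The 23 reported loci with the largest changes that passed both rules kept their direction in 253 recomputed values, of which 104 lost the threshold. With a culture left out, that direction was fixed in advance, because the loci were picked as changed the same way in every culture. Settings that altered only the fit or the loci left the change itself as it was. With 1 culture left out, the mean change turned sign in 4 of the 12 loci chosen by the distance of hairpin B, in 0 of 56 called list members and in 59 of 353 tested list members that were not called. The called members had been picked by these same values. Over the alternatives that change the values, loci or cultures, 19 of 223 recomputed list medians moved by more than the spread between cultures. These were medians over tested members, whereas the list medians above are over all entries, for which this was not recomputed. Depth is known only from the low values, so levels under about 0.290 to 0.417 FPKM on 1 kb rest on fewer than 3 fragments.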

Other observations

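Some list members not described above had unequal changes between cultures, and none of them passed limma. Rhox6, a homeobox gene of placenta and germ cells, read 1.36 to 3.94 FPKM in scrambled, 0.630 to 4.88 in hairpin A and 0.589 to 8.65 in hairpin B (adjusted p = 0.053), at least 2-fold higher in every culture. Ccnd2, cyclin D2, read 7.58 to 48.9 FPKM in scrambled, 5.04 to 26.3 in hairpin A and 5.14 to 5.58 in hairpin B (adjusted p = 0.099), and its changes were 2.54, 2.18 and 0.10 in scrambled, hairpin A and hairpin B. Phf19, a partner of the polycomb repressive complex, read 1.75 to 3.21 FPKM in scrambled, 1.72 to 3.00 in hairpin A and 1.78 to 10.9 in hairpin B (adjusted p = 0.107), with the highest day 6 value in hairpin B. Peg3, an imprinted zinc finger gene whose entry overlaps its antisense Apeg3, read 13.5 to 162 FPKM in scrambled, 13.3 to 134 in hairpin A and 14.1 to 33.1 in hairpin B (adjusted p = 0.054). Eng, a co-receptor of the TGF-beta family in endothelium, read 9.83 to 2.52 FPKM in scrambled, 11.4 to 2.01 in hairpin A and 8.61 to 5.30 in hairpin B (adjusted p = 0.063), with lower values at day 6 in all 3 cultures. These 5 genes were chosen after their values were seen.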
